A study of Homo sapiens with 15 samples.

Results

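A PARP inhibitor at low dose was set directly against a PI3K inhibitor in one breast cancer cell line. The comparison set 6 of the 15 arrays of the study against each other, the 3 of cells given 10 nM AG014699 and the 3 given LY294002. All 15 arrays entered the fit, so the spread behind each p-value also comes from the other groups. All genes with a probe detected on at least 3 of the 15 arrays were taken, which gave 12302 genes, and none was chosen for its difference between the drugs. Total RNA of MDA-MB-436 cells had been hybridised to Illumina HumanHT-12 bead arrays after 7 days of treatment. MDA-MB-436 is a human triple-negative breast cancer line with a defective BRCA1 gene, so every group shares that defect. The other groups were DMSO, the solvent, which served as the background for both drugs, AG014699 at 100 nM alone, and the same dose together with LY294002, each on 3 arrays. The dose of LY294002 is not given in the sources used here, so the comparison sets 1 dose of one drug against an unknown dose of the other. The labels do not say that the 3 arrays of a group came from separate cultures, and all p-values rest on the array-to-array spread within groups, which may be technical only.

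AG014699, now known as rucaparib, blocks PARP1, an enzyme that marks DNA breaks with chains of ADP-ribose and recruits repair proteins to them. Cells without BRCA1 cannot repair by homologous recombination the breaks that arise when PARP1 is blocked. LY294002 blocks the lipid kinase PI3K, which carries signals from growth factor receptors to AKT and mTOR, and it also hits mTOR and some other kinases. AKT keeps the FOXO transcription factors out of the nucleus, mTOR raises the production of ATF4, which drives amino acid synthesis genes, and of SREBP, which drives sterol and fatty acid synthesis genes. NF-kB is a transcription factor family that drives cytokine and chemokine genes and also the genes of its own inhibitors.

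Chemokine and cytokine genes were among those that separated the drugs most, and 4 of their promoters are shown here, chosen because each holds a short NF-kB motif. The sequences are the 250 bases before the start of each gene from RefSeq, on build GRCh38.p14, written 5′ to 3′ along the strand of the gene. Capitals mark the motif GGNNTTTCC, searched on both strands.
CXCL8 promoter, chr4:73740319-73740568, + strand: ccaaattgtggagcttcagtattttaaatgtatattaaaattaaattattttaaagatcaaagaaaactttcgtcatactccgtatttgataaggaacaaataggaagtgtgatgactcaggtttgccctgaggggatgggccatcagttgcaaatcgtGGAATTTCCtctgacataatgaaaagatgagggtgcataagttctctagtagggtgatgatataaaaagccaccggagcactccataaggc
CXCL1 promoter, chr4:73869143-73869392, + strand: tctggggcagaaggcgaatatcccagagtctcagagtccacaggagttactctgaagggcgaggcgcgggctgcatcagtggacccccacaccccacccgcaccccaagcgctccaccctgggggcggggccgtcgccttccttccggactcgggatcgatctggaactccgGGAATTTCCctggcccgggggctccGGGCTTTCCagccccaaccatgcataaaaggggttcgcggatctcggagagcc
CCL20 promoter, chr2:227813592-227813841, + strand: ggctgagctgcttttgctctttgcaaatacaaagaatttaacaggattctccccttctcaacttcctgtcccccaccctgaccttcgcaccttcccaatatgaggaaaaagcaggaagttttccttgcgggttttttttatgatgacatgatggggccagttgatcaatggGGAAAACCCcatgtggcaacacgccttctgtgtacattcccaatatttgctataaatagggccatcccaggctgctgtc
IL6 promoter, chr7:22726950-22727199, + strand: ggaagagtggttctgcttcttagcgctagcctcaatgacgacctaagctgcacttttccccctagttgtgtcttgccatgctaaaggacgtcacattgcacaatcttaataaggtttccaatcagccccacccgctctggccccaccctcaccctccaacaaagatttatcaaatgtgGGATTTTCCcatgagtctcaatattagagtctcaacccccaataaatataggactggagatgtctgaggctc
The motif began 91 bases before the start of CXCL8 (interleukin 8) and 72 bases before that of IL6. CXCL1 carried it at 78 and at 53 bases, and CCL20 carried it at 79 bases on the opposite strand. Of the chemokine genes measured and listed in the promoter table, 9 of 13 held the motif (69.2%), against 589 of 9812 tested genes (6.0%) and 1497 of 27305 promoters in all (5.48%). Of the cytokine genes 2 of 7 held it, IL6 and IL32, of which IL32 did not pass the test, and of the prostaglandin synthesis genes 0 of 10. It was present in 5 of 12 promoters from the 15 genes most higher with AG014699 and in 0 of 12 from the 15 most lower. Among the genes most higher it was not found in this window for PTGS2, TNFAIP6, IL1B, SLC25A24, ESM1, IL24 and TRIML2. A match describes letters only, since the motif-bearing promoters of CXCL10 and CXCL3 belonged to genes that did not pass the test, at log2 differences of 0.06 and -0.21. NF-kB was not the only motif searched, and every list was searched for each motif without a test. The sterol motif TCACNCCAC was in 1 of 20 cholesterol synthesis promoters, against 0.846% of tested genes. The amino acid response motif TGATGNAA was in 3 of 30 promoters of the ATF4 list (1.53% of tested genes). The FOXO motif TGTTTAC was in 2 of 25 promoters of FOXO targets (1.91%). The motif TGACGTCA was in 0 of 13 chemokine promoters (3.02%). The AP-1 motif TGANTCA was in 3 of 7 cytokine and 3 of 13 chemokine promoters, against 4.03% of tested genes. It was also in 2 of 12 promoters of the genes most higher, CXCL8 among them, and in 1 of 12 of the most lower.

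The deposited signals had 75th percentiles of 193.9 to 195.2 on the 9 arrays of 10 nM AG014699, LY294002 and DMSO. They were already scaled between arrays, so this evenness does not measure quality. Between 19665 and 20808 probes were detected with AG014699, and between 18971 and 19884 with LY294002. Log2 signals of the 12302 genes correlated at 0.988 to 0.991 between arrays of AG014699, at 0.979 to 0.989 between arrays of LY294002 and at 0.970 to 0.980 between the groups. The mesenchymal markers of this line, VIM, CDH2 and CD44, were detected on all 15 arrays, and the estrogen receptor gene ESR1 on 3 of 15. FOXA1 and ERBB2 (HER2), expected to be low in this line, were detected on all 15. Markers of cells that a pure culture should not hold were detected on all arrays for the monocyte gene CD14, on 2 of the 6 compared for ITGAM and on 0 of 6 for PECAM1.

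In all 925 of 12302 genes differed between 10 nM AG014699 and LY294002 at an adjusted p under 0.05 (limma with Benjamini-Hochberg adjustment), which is 7.52% of those tested, and 2644 had an unadjusted p under 0.05. Signals were higher with AG014699 for 512 genes (4.16%) and lower for 413 (3.36%). The differences were unequal in size. Of the 181 genes (1.47%) that differed at least 2-fold, 134 were higher with AG014699 and 47 lower, and a difference of at least 4-fold was reached by 37 genes higher and 0 lower. The 3 arrays of one group lay wholly above the 3 of the other for 914 of the 925, a pattern that 26.5% of all tested genes showed. The median difference of all genes was 0.01 on the log2 scale, and the calls had a median absolute difference of 0.73. Leaving out AG014699 array 2 or 3, or LY294002 array 2, reduced the count to 521, 592 and 589, and 405 genes (3.29%; 245 higher, 160 lower) passed whichever 1 of the 6 arrays was left out. For comparison, 292 genes (2.37%) differed between 10 nM AG014699 and DMSO, 214 of them higher (1.74%) and 78 lower (0.634%). Between LY294002 and DMSO 138 genes (1.12%) differed, 63 higher (0.512%) and 75 lower (0.61%). Those comparisons share their 3 DMSO arrays with each other, so below they are given only as values side by side. Counts of called members in the gene lists below are to be read beside the 7.52% of all genes. Counts at an unadjusted p under 0.05 are to be read beside the 2644 of 12302.

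**Figure D1:**
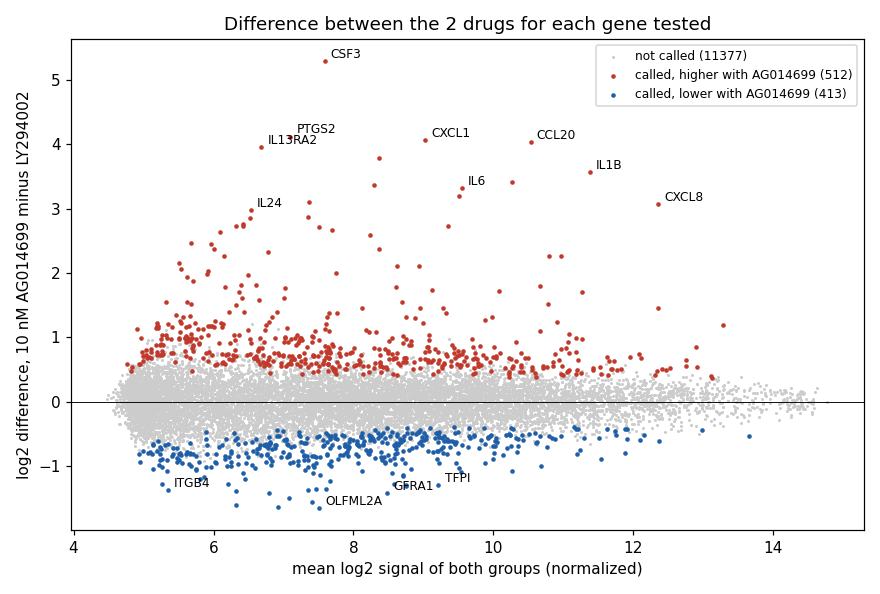
Difference between the drugs for each of 12302 genes (vertical axis, log2, 10 nM AG014699 minus LY294002) against the mean log2 signal of both groups (horizontal axis). Red points are the 512 genes called higher with AG014699, blue points the 413 called lower and grey points the rest. The highest differences reach 5.29, for CSF3, whereas the lowest end at -1.65, for OLFML2A.

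Cytokine genes showed the widest gap between the drugs. Of 9 measured cytokine genes 7 were higher with AG014699, 0 were lower, and the median difference of the list was 2.27. The list held 16 genes, and 6 of the 9 measured were detected on all 6 arrays. In RNA of a whole culture a change in every cell cannot be told apart from a change in the share of cells that express a gene. CSF3, which encodes granulocyte colony-stimulating factor, a signal for neutrophil production, stood at log2 signals of 10.12, 10.36 and 10.23 on the AG014699 arrays and 5.02, 4.77 and 5.04 on the LY294002 arrays. The DMSO arrays lay between them, at 6.75, 6.69 and 6.50. No LY294002 array detected CSF3, so its level with AG014699 was at least 33.6-fold higher (adjusted p = 2.23e-11), and a second CSF3 probe gave a log2 difference of 5.18. Against DMSO, CSF3 was higher by 3.59 with AG014699 (adjusted p = 4.23e-09) and at least 2.80-fold lower with LY294002 (adjusted p = 5.49e-05).

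IL1B, the gene of interleukin 1 beta, which starts inflammatory signalling in neighbouring cells, measured 13.13, 13.12 and 13.23 with AG014699 and 9.81, 9.55 and 9.41 with LY294002. It measured 10.54, 10.47 and 10.49 with DMSO, again between the drugs and without overlap. The difference was 3.57 (SE 0.12, adjusted p = 5.61e-11), and both drugs differed from DMSO, AG014699 by 2.66 and LY294002 by -0.91 (adjusted p = 0.00116). IL6, the main inducer of the acute phase response, read 10.98, 11.39 and 11.26 against 8.02, 8.06 and 7.60, with 8.92, 8.76 and 8.81 in DMSO. The groups were ordered as for IL1B, and IL6 differed by 3.32 (SE 0.14, adjusted p = 1.07e-09). IL1A, the sister gene of IL1B, was higher by 2.27 (SE 0.19), IL11, an IL6 family cytokine, by 1.79 (SE 0.21) and LIF, another member of that family, by 1.62 (SE 0.13).

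IL24 behaved otherwise towards DMSO. This IL10 family cytokine read 7.80, 8.01 and 8.27 with AG014699, 5.27, 5.00 and 4.86 with LY294002 and 5.00, 4.75 and 5.06 with DMSO. The LY294002 and DMSO arrays overlapped, and just 1 of those 6 detected the gene. The difference between the drugs was 2.98 (SE 0.18, adjusted p = 6.57e-08), and between LY294002 and DMSO it was 0.11 (adjusted p = 0.852). A second, dim IL24 probe differed by 0.43 and did not pass. IL32 and TNFSF15 completed the list at -0.29 and -0.22, neither of which passed. All 7 calls stood whichever array was left out.

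Chemokine genes followed the cytokines, with 9 of 16 higher with AG014699, 0 lower and a median of 0.96. The list held 21 genes, and of the 16 measured 8 were detected on all 6 arrays and 2 on none of them. CXCL5, CXCL6 and CXCL11 were undetected with LY294002 and entered the test through arrays of other groups, so the count and median depend in part on the detection filter. CXCL8, CXCL1 and CXCL2 attract neutrophils. CXCL8 measured 13.71, 13.94 and 14.01 with AG014699 against 10.69, 10.79 and 10.96 with LY294002, and 11.86, 12.15 and 11.85 with DMSO. Each group was separate from the others, and the difference was 3.07 (SE 0.13, adjusted p = 1.07e-09), with 4.09 from a second probe. CXCL1 read 10.90, 11.12 and 11.16 against 6.63, 7.31 and 7.05, around 8.65, 8.74 and 8.88 in DMSO. Its difference of 4.06 (SE 0.15, adjusted p = 1.97e-10) was made of 2.30 between AG014699 and DMSO and -1.76 between LY294002 and DMSO, both past the test.

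CCL20, which attracts dendritic cells and lymphocytes through the receptor CCR6, read 12.37, 12.65 and 12.63 against 8.58, 8.33 and 8.64, with 9.80, 9.73 and 9.90 in DMSO. The order of the groups was the same, with a difference of 4.03 (SE 0.12, adjusted p = 2.23e-11). CXCL2 differed by 3.41 (SE 0.19), CCL2, a monocyte attractant, by 1.13 (SE 0.19), CXCL6 by 1.04 and CXCL11 by 0.88. CXCL6 and CXCL11 were detected on 0 of 3 LY294002 arrays, and their levels with AG014699 were at least 1.60-fold and at least 1.36-fold higher. CXCL1 and CXCL2 are similar in sequence, so a probe of one may also read the other.

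CCL3 and CXCL5 differed from DMSO with AG014699 and not with LY294002. CCL3, a macrophage chemokine with near-identical copies in the genome, measured 8.84, 8.92 and 8.84 with AG014699, 6.62, 6.20 and 5.61 with LY294002 and 6.49, 6.39 and 6.54 with DMSO. LY294002 and DMSO overlapped, at a difference of -0.33 (adjusted p = 0.547), while the drugs differed by 2.72 (SE 0.22, adjusted p = 1.12e-06). CXCL5 was at least 3.40-fold higher with AG014699 than with LY294002 (adjusted p = 1.69e-05), but its second probe, detected on none of the 6 arrays, differed by -0.02. Of the 7 members that did not pass, CCL5 was the furthest from 0, at 0.48 (adjusted p = 0.084). Each of the 9 chemokine calls stood whichever array was left out.

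Several feedback inhibitors of NF-kB differed between the drugs, and none of the subunit genes passed. Of 18 genes in this list 8 were higher with AG014699 and 1 was lower, with a median of 0.42. NFKBIZ, a nuclear cofactor of NF-kB at the IL6 gene, read 11.51, 11.48 and 11.70 against 9.71, 9.85 and 9.73, with no overlap and a difference of 1.80 (SE 0.11, adjusted p = 7.82e-08). ZC3H12A, a nuclease that degrades IL6 messenger RNA, differed by 2.38 (SE 0.15) and TNFAIP3, the ubiquitin-editing inhibitor A20, by 1.38 (SE 0.16). TNIP3, an A20 partner, was not detected with LY294002 and was at least 2.80-fold higher with AG014699. NFKBIB, IER3 and TNIP1 were higher by 0.99, 0.85 and 0.75. The subunit genes NFKB1, NFKB2, RELA, RELB and REL lay between -0.19 and 0.27, none past the test. BCL3, a cofactor of NF-kB, was lower at -0.70 and NFKBIE higher at 0.57, and both calls were lost when certain single arrays were left out, while the other 7 stood.

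**Figure D2:**
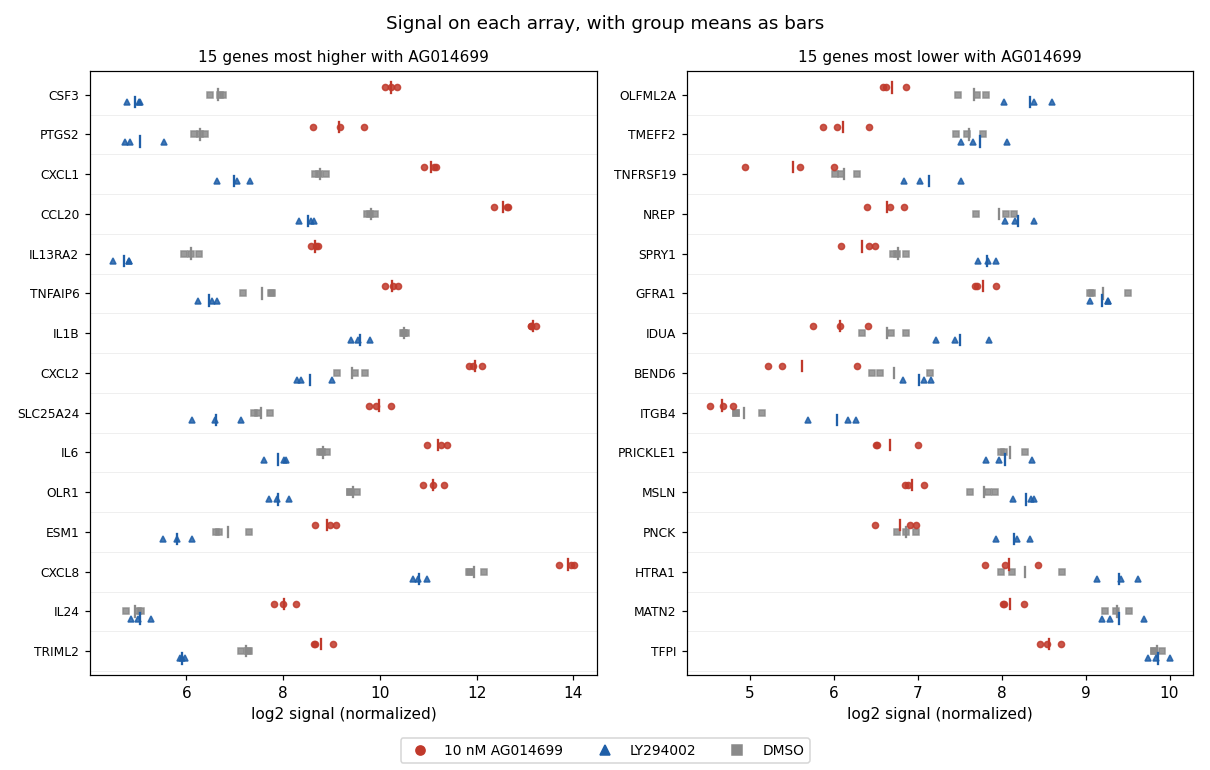
Normalised log2 signal on every array for the 15 genes most higher (left) and the 15 most lower (right) with 10 nM AG014699. Circles are AG014699, triangles LY294002 and squares DMSO, with 3 arrays each and bars at the group means. On the left DMSO mostly lies between the drugs, as for CSF3, IL1B and CXCL8, and for IL24 it lies with LY294002, whereas on the right GFRA1, TFPI and PRICKLE1 have DMSO beside LY294002 and PNCK has it beside AG014699.

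Prostaglandin genes were higher with AG014699 in 4 of 10 cases, with 0 lower and a median of 0.33. PTGS2, the inducible cyclooxygenase that makes the prostaglandin precursor, varied more than the cytokines, at 8.62, 9.18 and 9.68 with AG014699 and 4.83, 4.74 and 5.55 with LY294002. Even so the groups were far apart, with a difference of 4.12 (SE 0.32, adjusted p = 1.01e-06), and a second probe gave 2.47. PTGS2 was detected on 1 of 3 LY294002 arrays and on all DMSO arrays, at 6.15, 6.40 and 6.28. PLA2G4A, the phospholipase that releases arachidonic acid, was higher by 1.39 (SE 0.22), PTGES, the prostaglandin E synthase, by 1.32 (SE 0.19), and ALOX5AP, the helper of leukotriene synthesis, was at least 2.69-fold higher. The constitutive cyclooxygenase gene PTGS1 was at -0.12 and did not pass.

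Of 18 calprotectin, S100 and acute phase genes 10 were higher with AG014699 and 3 lower, at a median of 0.69. S100A8 and S100A9 encode calprotectin, a metal-binding antimicrobial dimer. S100A8 read 9.10, 9.70 and 9.79 with AG014699, 7.01, 7.04 and 6.76 with LY294002 and 8.996, 9.24 and 8.93 with DMSO. Here AG014699 overlapped DMSO and LY294002 lay below both. The drugs differed by 2.59 (SE 0.20, adjusted p = 7.38e-07), LY294002 and DMSO by -2.12 (adjusted p = 5.49e-05), and AG014699 and DMSO by 0.47 (adjusted p = 0.325). S100A9 gave values of the same kind, 2.26 between the drugs, -1.66 for LY294002 and 0.61 for AG014699 (adjusted p = 0.062) against DMSO.

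PI3, the elastase inhibitor elafin, was higher by 2.73 (SE 0.21) and SLPI, a related inhibitor, by 0.95 (SE 0.17). LCN2, which withholds iron from bacteria, was higher by 1.71 (SE 0.23). The acute phase genes SAA4, SAA2 and SAA1 were higher by 1.77, 1.45 and 1.23, of which SAA1 and SAA2 are near-identical copies. S100A4, a calcium-binding protein linked to cell motility, was the exception that stood whichever array was left out. It measured 8.72, 8.76 and 8.76 with AG014699, 9.75, 9.62 and 9.73 with LY294002 and 10.62, 10.53 and 10.88 with DMSO. Both drugs were below DMSO, AG014699 by -1.93 (adjusted p = 1.03e-05) and LY294002 by -0.97 (adjusted p = 0.0119), and they differed from each other by -0.95 (SE 0.17, adjusted p = 0.00339).

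Calprotectin, LCN2 and many of the cytokines above are also made by myeloid cells, so markers of other cell types are given beside them. Of 21 leukocyte, endothelial and fibroblast markers 4 were measured, and 2 of these were higher with AG014699, the monocyte genes CD14 by 0.92 (SE 0.14) and CD68 by 0.93 (SE 0.14). CD68 is also a lysosomal protein of many cells, and its other probes gave 1.08 and -0.02. On a linear scale the summed signal of the 4 markers was 3212 to 4047 on the AG014699 arrays. It was 1791 to 2018 on the LY294002 arrays and 2146 to 2300 on the DMSO arrays. This sum came mostly from the CD68 probe used, at a mean log2 signal of 11.37, against 8.42 for CD14. The sum therefore mostly follows CD68 and does not weigh the 4 markers evenly. Of the other CD68 probes, the one at -0.02 had a mean of 10.04 and the one at 1.08 a mean of 6.58. PECAM1 was detected on 0 of the 6 arrays and ITGAM did not pass, at 0.25. The part of such cells in the results was not tested.

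Several of the widest differences fell outside these lists. TNFAIP6, which binds hyaluronan in inflamed matrix, was higher with AG014699 by 3.79 (SE 0.17), OLR1, the receptor of oxidised lipoprotein, by 3.20 (SE 0.14), ESM1, a secreted endothelial proteoglycan, by 3.10 (SE 0.20) and TRIML2 by 2.86 (SE 0.15). IL13RA2, the decoy receptor of interleukin 13, was detected on all AG014699 and DMSO arrays and on 0 of 3 LY294002 arrays. Its values were 8.57, 8.68 and 8.72 with AG014699, 4.49, 4.81 and 4.82 with LY294002 and 6.26, 5.95 and 6.10 with DMSO. AG014699 was therefore at least 11.3-fold above LY294002 (adjusted p = 5.54e-09). SLC25A24, a mitochondrial ATP carrier, was higher by 3.36 by its brightest probe, whereas its other probes gave -0.02 and -0.12.

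LY294002 arrays detected 18971 to 19884 probes and AG014699 arrays 19665 to 20808, and the part of this in the next counts was not tested. Of the 12302 genes, 84 were detected on all 3 AG014699 arrays and on none of LY294002, and 21 showed the reverse. Beside CSF3 and IL13RA2, the former included CYP4B1, a fatty acid oxidising P450, at least 4.77-fold higher with AG014699 and SPOCD1 at least 4.09-fold. They also held the pseudogene VNN3P at least 4.08-fold higher and the glycerol channel AQP9 at least 3.37-fold. Without background correction the folds were smaller, 2.37 for CYP4B1, 2.13 for SPOCD1, 2.08 for VNN3P and 2.17 for AQP9. They were 11.05 for CSF3, 4.55 for IL13RA2, 1.83 for CXCL5 and 1.70 for TNIP3, each over 1.5 times below the bound given. AQP9 was not detected with DMSO either. SPOCD1 was, and it was at least 2.09-fold lower with LY294002 than with DMSO (adjusted p = 0.000343). Among the latter, ITGB4, the integrin of hemidesmosomes, was at least 1.94-fold lower with AG014699 (adjusted p = 5.30e-05). The stress keratin KRT16 was at least 1.76-fold lower (adjusted p = 0.00557). Without background correction these folds were 1.45 and 1.43, and those of ALOX5AP, CXCL6 and CXCL11 were 1.93, 1.31 and 1.26, again below the bounds given. Each "at least" therefore holds for background-corrected signals only.

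Genes lower with AG014699 than with LY294002 belonged to other families and differed less. The 15 furthest from 0 lay between -1.29 and -1.65, whereas the 15 on the other side lay between 2.86 and 5.29. TFPI, the inhibitor of the tissue factor pathway of coagulation, read 8.46, 8.54 and 8.70 with AG014699, 10.01, 9.74 and 9.83 with LY294002 and 9.91, 9.82 and 9.81 with DMSO. LY294002 and DMSO overlapped, and the drugs differed by -1.29 (SE 0.14, adjusted p = 3.98e-05), with -1.26 and -1.25 from further probes. GFRA1, the receptor of the growth factor GDNF, differed by -1.43, the polarity gene PRICKLE1 by -1.37, the matrix linker MATN2 by -1.29 and TMEFF2 by -1.64. All 4 were below DMSO with AG014699, by -1.44, -1.42, -1.27 and -1.50, and none passed with LY294002 against DMSO.

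The reverse held for another set, in which LY294002 differed from DMSO and AG014699 did not pass. PNCK, a calmodulin-dependent kinase, read 6.98, 6.91 and 6.49 with AG014699, 8.33, 8.19 and 7.93 with LY294002 and 6.86, 6.75 and 6.98 with DMSO. AG014699 and DMSO overlapped, LY294002 was above both, and the drugs differed by -1.36 (SE 0.16, adjusted p = 7.86e-05). SPRY1, a feedback inhibitor of receptor tyrosine kinase signalling, differed by -1.50, from 6.08, 6.49 and 6.42 against 7.83, 7.93 and 7.71, and LY294002 exceeded DMSO by 1.06 (adjusted p = 0.0166). HTRA1, a secreted serine protease, differed by -1.31 and ITGB4 by the bound given above, with LY294002 above DMSO by 1.12 (adjusted p = 0.0178) for HTRA1.

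OLFML2A, a matrix protein of the olfactomedin family, had the lowest difference, -1.65 (SE 0.19), and MSLN, the surface protein mesothelin, was at -1.36 (SE 0.13). Both were below DMSO with AG014699, by -0.98 and -0.86, and LY294002 did not pass against DMSO, at 0.67 (adjusted p = 0.117) and 0.50 (adjusted p = 0.082). NREP and BEND6, at -1.56 and -1.40, were below DMSO with AG014699 by -1.33 and -1.09. TNFRSF19, a receptor of the TNF family, and IDUA, a lysosomal enzyme, were lower at -1.62 and -1.42, and neither drug passed against DMSO for either gene. All 30 of the most higher and most lower genes passed whichever array was left out. Without background correction of the signals, the difference of 15 of them was over 1.5 times smaller, with ranges of 1.54 to 3.74 for the higher and 0.532 to 1.14 in size for the lower genes.

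None of the drug target genes measured passed the test at the RNA level, and PIK3CA was not measured here. PARP1 measured 12.18, 12.27 and 12.13 with AG014699 and 12.26, 12.33 and 12.38 with LY294002, a difference of -0.13 (SE 0.15, adjusted p = 0.674). PARP2 was at 0.14, the PI3K catalytic subunit genes PIK3CB and PIK3CD at 0.05 and -0.22, MTOR at 0.05 and BRCA1 at 0.08, none past the test. Of 23 genes of the PI3K, AKT and mTOR pathway 0 passed in either direction in limma, and the median was 0.05. Of the 23, 1 had an unadjusted p under 0.05, against 2644 of all 12302 genes. Of 17 PARP family genes 0 were higher and 1 was lower (5.88%, against 7.52% of all genes). That gene was MACROD1, an ADP-ribose hydrolase, at -1.01, a call lost without AG014699 array 2 or 3 or LY294002 array 1.

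Receptor tyrosine kinase genes differed in 4 of 17 cases, all lower with AG014699, with a list median of 0.05. EGFR read 8.49, 8.31 and 8.26 with AG014699, 8.83, 8.94 and 8.91 with LY294002 and 8.47, 8.55 and 8.36 with DMSO. LY294002 lay above the others without overlap, at -0.54 between the drugs (SE 0.11, adjusted p = 0.00695). FGFR3 was at -0.997 (SE 0.14, adjusted p = 0.000471) by its brighter probe, but the other probe differed by 0.40 and did not pass, and the authors' value table, where the brighter probe has a blank, gave 0.16. ERBB2 and AXL, at -0.49 and -0.69, were calls that depended on single arrays. The count fell to 2 without AG014699 array 2 or 3 or without LY294002 array 2. IRS2, an adaptor of the insulin receptor that FOXO induces, was at -0.37 and did not pass.

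FOXO target genes were split, with 3 of 28 higher with AG014699, 5 lower and a median of -0.05. KLF2, a transcription factor gene induced by FOXO1 in lymphocytes, measured 10.72, 10.84 and 10.79 with AG014699, 11.63, 11.54 and 11.63 with LY294002 and 10.56, 10.46 and 10.62 with DMSO. LY294002 was above both other groups, with -0.82 between the drugs (SE 0.11, adjusted p = 2.00e-04) and 1.06 between LY294002 and DMSO (adjusted p = 8.00e-05). CITED2, a coactivator, was at -0.63. On the other side, DDIT4, an inhibitor of mTOR, read 9.71, 9.68 and 9.65 with AG014699, 8.40, 8.08 and 8.20 with LY294002 and 9.27, 9.23 and 9.17 with DMSO. Here LY294002 was below both, and the drugs differed by 1.45 (SE 0.12, adjusted p = 1.15e-06). SOD2, the mitochondrial superoxide dismutase, and FBXO32, a ubiquitin ligase, were higher with AG014699 by 1.20 and 0.62. SESN1, BBC3 and TXNIP were calls that some leave-outs ended, and the list count was 5 without AG014699 array 2 or LY294002 array 1.

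Amino acid synthesis and transport genes under ATF4 differed one way, with 10 of 35 higher with AG014699, 0 lower and a median of 0.30. PSAT1, an enzyme of serine synthesis, measured 10.55, 10.62 and 10.75 with AG014699, 10.01, 10.01 and 10.00 with LY294002 and 10.61, 10.77 and 10.75 with DMSO. AG014699 overlapped DMSO and LY294002 was below both. The drugs differed by 0.64 (SE 0.11, adjusted p = 0.00225), and against DMSO the values were -0.70 for LY294002 (adjusted p = 0.00441) and -0.07 for AG014699 (adjusted p = 0.886). PSPH, the last enzyme of serine synthesis, gave 0.81 between the drugs with -0.91 and -0.10 against DMSO in the same order, and CBS, which turns homocysteine into cystathionine, gave 0.99 with -0.83 and 0.17.

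STC2 and SLC7A11 stood otherwise towards DMSO. STC2, a secreted stress protein, read 10.64, 10.53 and 10.59 against 9.83, 9.90 and 10.05, with 9.65, 9.76 and 9.88 in DMSO, so that AG014699 alone stood apart. It differed by 0.66 between the drugs (SE 0.11, adjusted p = 0.00167) and by 0.82 between AG014699 and DMSO (adjusted p = 0.00042). SLC7A11, the cystine importer, differed by 1.01 (SE 0.16, adjusted p = 0.00137), and neither drug passed against DMSO. Those 6 genes, DDIT4 included, passed whichever array was left out, and CEBPB, ASNS, TRIB3 and PHGDH did not, at 0.55, 0.53, 0.48 and 0.40.

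Sterol synthesis genes were higher with AG014699 in 4 of 22 cases, with 0 lower and a median of 0.19. INSIG1, the sensor that holds SREBP in the endoplasmic reticulum and is itself an SREBP target, read 11.30, 11.21 and 11.29 with AG014699, 10.51, 10.71 and 10.63 with LY294002 and 11.53, 11.75 and 11.60 with DMSO. LY294002 was the lowest group, AG014699 came next, and the drugs differed by 0.65 (SE 0.12, adjusted p = 0.00394). HMGCS1, which forms the HMG-CoA used in cholesterol synthesis, differed by 0.55 (SE 0.12, adjusted p = 0.00926). Against DMSO, LY294002 was at -1.01 and -0.75 for these genes, both past the test, and AG014699 at -0.36 and -0.20, neither past it. ACAT2 and MSMO1 were calls that depended on single arrays, and the count was 2 without AG014699 array 1 or 2 or LY294002 array 2. In fatty acid synthesis 1 of 18 genes was higher, SCD at 0.52, and 1 lower, ACACB at -0.68, and neither passed without LY294002 array 1, 2 or 3. These calls are 11.1% of the list, against 7.52% of all genes.

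Endoplasmic reticulum chaperone genes were higher in 4 of 17 cases and lower in 0, with a median of 0.32. SDF2L1, part of a chaperone complex, was higher with AG014699 by 0.76 (SE 0.14), HSPA5, the chaperone BiP, by 0.73 (SE 0.15) and XBP1, a transcription factor of the unfolded protein response, by 0.69 (SE 0.12). HSPA5 stood at 9.81, 10.04 and 9.90 against 9.23, 9.20 and 9.11, with DMSO at 9.83, 9.35 and 9.72, overlapping AG014699. In the lipid droplet list 2 of 14 were higher, 0 lower (14.3% called, against 7.52% of all genes). G0S2, an inhibitor of triglyceride lipase, read 7.70, 8.04 and 7.63 against 5.12, 5.34 and 4.69, a difference of 2.74 (SE 0.18, adjusted p = 9.55e-08) although 1 of 3 LY294002 arrays detected it. PLIN2, a droplet coat protein, differed by 0.68 (SE 0.11).

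**Figure D3:**
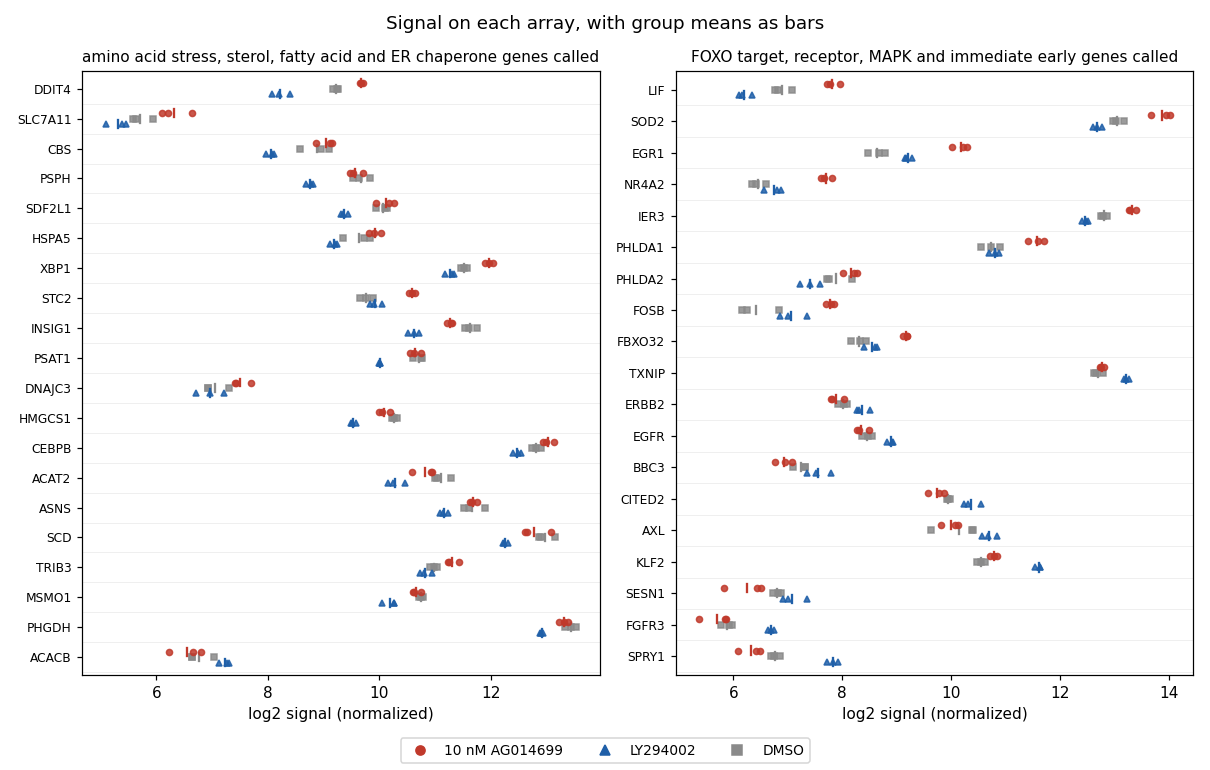
Normalised log2 signal on every array for the called members of the amino acid stress, sterol, fatty acid and chaperone lists (left, 20 genes) and of the FOXO, receptor, MAPK and immediate early lists (right, 19 genes, without DDIT4, which is drawn on the left). Circles are 10 nM AG014699, triangles LY294002 and squares DMSO, with 3 arrays each and bars at the group means. On the left 19 of 20 genes were higher with AG014699, and for genes such as PSAT1, PSPH and CBS the circles overlap the squares, and on the right 9 were higher and 10 lower.

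Hypoxia and glycolysis genes were higher with AG014699 in 9 of 33 cases and lower in 1, with a median of 0.30. CA12, a membrane carbonic anhydrase, differed by 1.46 (SE 0.26), HK2, which begins glycolysis, by 0.96 (SE 0.17), NDRG1 by 0.86 (SE 0.14) and ADM, the vasodilator peptide adrenomedullin, by 0.64 (SE 0.11). Those 4 passed whichever array was left out. ADM read 11.54, 11.58 and 11.45 with AG014699, 10.97, 10.84 and 10.85 with LY294002 and 10.51, 10.32 and 10.52 with DMSO, so that both drugs lay above DMSO without overlap. VEGFA, at 0.80, was among the calls lost by some leave-outs, which brought the list to 6 without AG014699 array 2 and to 5 without AG014699 array 3 or LY294002 array 1.

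Immediate early genes, which growth factor signals switch on rapidly, were higher in 3 of 16 cases and lower in 0, with a median of 0.08. EGR1, a zinc finger transcription factor, measured 10.22, 10.30 and 10.01 with AG014699, 9.14, 9.17 and 9.29 with LY294002 and 8.78, 8.67 and 8.48 with DMSO. All groups were separate, with DMSO the lowest, and the drugs differed by 0.97 (SE 0.14, adjusted p = 0.000584). NR4A2, an orphan nuclear receptor, differed by 0.95 (SE 0.15). FOSB, at 0.71, was lost without some arrays, and FOS and JUN, at 0.27 and -0.07, did not pass. Leaving out LY294002 array 1 gave 4 calls, and leaving out AG014699 array 1 or 2 or LY294002 array 2 or 3 gave 2.

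Among MAPK feedback genes 4 of 22 were higher, LIF, IER3, PHLDA1 and PHLDA2, and 1 was lower, SPRY1. The PHLDA2 call, at 0.76, was lost without AG014699 array 1 or 2 or LY294002 array 1 or 3. PHLDA1 differed by 0.78 (SE 0.14, adjusted p = 0.00312). The phosphatase gene DUSP6 was at 0.68 (adjusted p = 0.069) and the ERK target genes ETV4 and ETV5 at 0.15 and -0.12, none past the test. The median of the list was 0.18. Of 5 EGF family ligand genes 0 passed, EREG being the furthest from 0 at 0.90 (adjusted p = 0.11 in limma) and 1 gene having an unadjusted p under 0.05.

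Matrix genes differed in both directions, 6 of 27 higher with AG014699 and 7 lower, with a median of -0.20. LAMB3, a laminin chain of the basement membrane, read 7.36, 7.49 and 7.71 against 5.83, 5.73 and 5.55, a difference of 1.81 (SE 0.15, adjusted p = 1.13e-06). DMSO, at 5.71, 6.003 and 6.03, overlapped LY294002. TNC, tenascin C, and COL8A1, a short-chain collagen, were higher by 1.32 and 1.31, and there LY294002 was the group that differed from DMSO, at -1.08 and -1.16. A second COL8A1 probe gave 0.36 and did not pass. PCOLCE, which helps to process procollagen, was lower by -1.15, TGFBI, a collagen-binding matrix protein, by -1.04, COL12A1 by -0.95 and smooth muscle actin, ACTA2, by -0.74. Those 7 genes passed whichever array was left out, whereas the count was 7 without AG014699 array 2 and 8 without AG014699 array 3 or LY294002 array 1.

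Secreted proteases and inhibitors gave 4 of 13 higher and 2 lower, at a median of -0.04. MMP1, an interstitial collagenase, was higher by 1.81 (SE 0.29, adjusted p = 0.00125), with uneven LY294002 arrays at 4.69, 5.76 and 6.04 against 7.22, 7.60 and 7.09. TFPI2, a protease inhibitor related to TFPI, was higher by 1.27 (SE 0.17), opposite to TFPI, and PLAUR, the urokinase receptor, by 1.07 (SE 0.19). The count was 4 without AG014699 array 2 or LY294002 array 1 or 2. In the epithelial list 0 of 12 were higher and 3 lower, with KRT8 at -0.84 beside KRT16. MUC1, a luminal mucin, was lower by -1.24 (SE 0.20, adjusted p = 0.00136), with -1.22 from a second probe.

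DNA repair and cell cycle genes were called at shares on both sides of the 7.52% of all genes. Of 26 homologous recombination genes 1 was higher, the checkpoint kinase CHEK1 at 0.51, and 2 were lower, BARD1, the partner of BRCA1, at -0.49 and XRCC2 at -0.57. These calls are 11.5% of the list against 7.52% of all genes, and all 3 were lost without AG014699 array 2 or LY294002 array 1. Of 27 genes of base excision and end joining 0 passed in limma, with 7 at an unadjusted p under 0.05. Such a p was reached by 2644 of all 12302 genes. Of 43 replication genes 1 was higher (2.33%), the licensing factor CDT1 at 0.76, a call lost without AG014699 array 3, and of 51 mitotic genes 1 was lower (1.96%). That gene was CENPF, a kinetochore protein, at 8.94, 8.95 and 8.76 against 9.46, 9.78 and 9.64, a difference of -0.74 (SE 0.15, adjusted p = 0.00757). DMSO, at 9.06, 9.62 and 9.27, overlapped LY294002. The replication, mitosis, ribosome biogenesis and respiratory chain medians lay between -0.07 and 0.18, and in the last pair of lists 0 of 28 and 0 of 38 genes passed in limma, with 9 and 2 at an unadjusted p under 0.05.

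**Figure D4:**
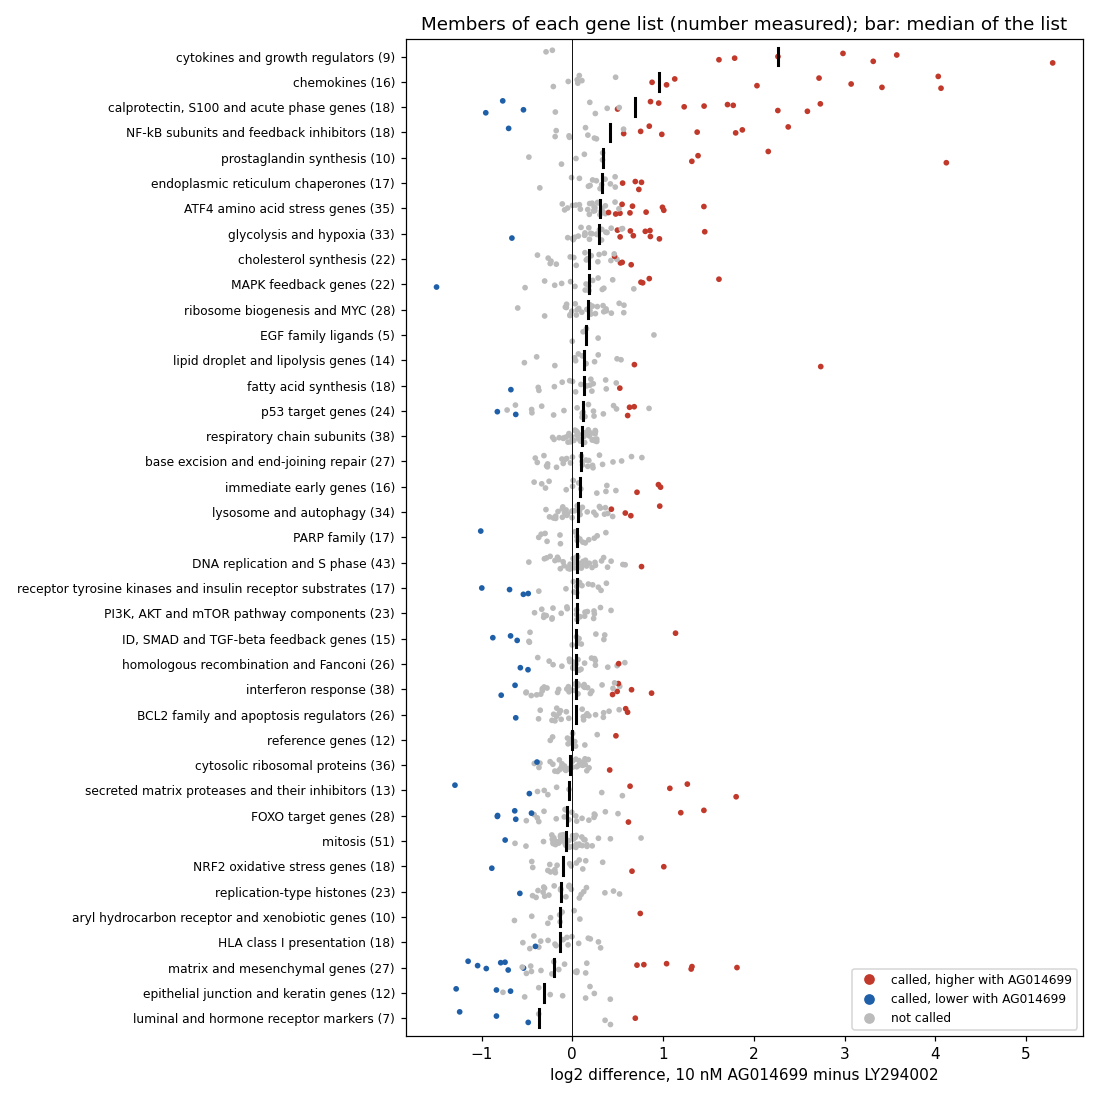
Log2 difference, 10 nM AG014699 minus LY294002, for each measured member of the 39 gene lists with at least 5 measured genes. Each point is a gene, red where called higher and blue where called lower with AG014699, grey otherwise, and the black bar is the median of the list. The cytokine, chemokine and calprotectin, S100 and acute phase lists have medians of 2.27, 0.96 and 0.69, against 0.01 for all genes. The repair, replication, ribosomal and respiratory lists have medians between -0.02 and 0.18. The highest of these is ribosome biogenesis, with 20 of 28 genes above 0, and the respiratory list has 27 of 38 above 0.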

How the data were processed

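Total RNA of MDA-MB-436 cells was labelled with biotin and read on Illumina bead arrays, per the labels. The signal table deposited by the authors listed 48107 probes on 15 arrays, each with a signal intensity and a p-value of detection, and the deposited intensity values matched between arrays in their medians, so they were already scaled when deposited, still with background. The authors also deposited a table of log2 values, equal to the log2 intensity minus the mean of the probe to within 1e-07. The software and the genome build are not given in the sources used here.

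With limma 3.58.1 (statmod 1.5.0, R 4.3.3), the intensities were background corrected from the detection p-values, quantile normalised and turned to log2 with neqc (offset 16). The filter kept the 23680 probes with a detection p under 0.05 on 3 or more of the 15 arrays, of which 16577 carried 1 symbol in the array annotation and 7103 had no single gene name. The probe with the highest mean signal stood for each of 12302 genes. After 2 probes with missing signals were left out, 48105 were normalised. All 15 arrays entered one linear model that gave each group its mean (lmFit, eBayes, 10 residual and 4.8 prior degrees of freedom), the groups were contrasted, and p-values received the Benjamini-Hochberg adjustment across all genes, with calls at an adjusted p under 0.05. A gene undetected on all arrays of a group was given a lower bound of its fold, against the higher of the lowest detected signal and its own signal. These bounds apply to the background-corrected signals. The fit was tested on simulated data.

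Named genes were the 15 with the largest difference each way among calls without overlap between groups, up to 6 called members of each of 40 gene lists, the drug targets, list members whose role is described, and genes detected in 1 group only. The members and lists were chosen with earlier results of these data known. Promoters came from a RefSeq table. In all, 24 alternatives were run, covering background correction, source of values, filter, arrays, probe choice, weights, variance model, replicate block and leave-outs. Array number and signal over background limit the precision.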

Additional observations from a re-analysis of the deposited data

How the results depend on the processing

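The count of genes that differ was 925 (512 higher with AG014699, 413 lower). It was 475 (287 and 188) with only the 6 arrays compared in the fit, 431 (245 and 186) without the arrays numbered 1, and 1578 (793 and 785) with array weights. Leaving out 1 of the 6 arrays gave 521 to 840 genes, 314 to 444 of them higher and 207 to 396 lower, with the lowest counts without AG014699 array 2. Leaving out 1 DMSO array, alternatives added after the data were seen, gave 817 to 843. Differences of at least 2-fold numbered 181, against 65 without background correction, 98 with normexp at offset 50, 65 from the deposited signals as they stand and 51 from the authors' value table, which keeps background and held 8862 complete genes. The cause of the other shifts was not tested.

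The titles number the replicates, and the main fit did not use these numbers. Deviations of AG014699 and LY294002 arrays of the same number correlated at 0.205, 0.039 and 0.162. Those of different numbers correlated at -0.173 to 0.0423. With the replicate number as a block the count was 1142, against 925 without it. Whether arrays of the same number belong together was not tested. The next check covered 148 named genes and left out the further list members described beside them. Among the 148, FGFR3 was the one call that reversed, to 0.16 in the authors' value table, where the brighter probe has a blank and its other probe stands. Of the remaining comparisons of these genes with alternatives, 3158 kept their side of the threshold and 364 kept only the direction. Genes that did not pass in either fit are among the 3158 whatever their direction. In all, 281 genes were called in every alternative that tested them (174 higher, 107 lower). No slide or section is named in the sources used here, so that alternative was not run. Dim genes are limited by signal over background, and only bounds could be given for those undetected in a group.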

Other observations

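Other gene lists held fewer or mixed calls in the same comparison of 10 nM AG014699 with LY294002. Of 38 interferon response genes 5 were higher with AG014699 and 2 lower, and the one call that passed whichever array was left out was IFIT3, an antiviral protein, at 0.87 (SE 0.14, adjusted p = 0.00113). Its other probes gave 0.38 and -0.17 and did not pass, and the list count was 1 without AG014699 array 2. Of 18 HLA class I presentation genes 0 were higher and 1 was lower, HLA-F at -0.41, a call that stood in 1 of 6 leave-outs. Of 34 lysosome genes 4 were higher, led by GPNMB, a lysosomal glycoprotein, at 0.96 (SE 0.17), and the count was 1 without AG014699 array 2 or 3 or LY294002 array 2. Of 24 p53 target genes 3 were higher and 2 lower, and AEN, an apoptotic nuclease, at 0.63, passed whichever array was left out, while the count was 1 without AG014699 array 2. Of 26 apoptosis regulators 2 were higher and 1 lower, and each of these calls was lost in some of the leave-outs. Calls made up 18.4% of the interferon list, 5.56% of the HLA list and 11.8% of the lysosome list. They made up 20.8% of the p53 list and 11.5% of the apoptosis list, against 7.52% of all genes.

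Of 18 NRF2 target genes 2 were higher, among them SLC7A11, and 1 was lower, the thioredoxin reductase gene TXNRD1, at -0.89 (SE 0.14, adjusted p = 0.00118). Of 15 genes of TGF-beta feedback 1 was higher, GREM1, a secreted BMP antagonist, at 1.14 (SE 0.22, adjusted p = 0.00505), and 3 were lower, TGFB2 at -0.88, TGFBR3 at -0.68 and SMAD3 at -0.61, calls that depended on single arrays. Of 10 genes of the aryl hydrocarbon receptor 1 was higher, SLCO4A1 at 0.75, lost without AG014699 array 1 or 2 or LY294002 array 2 or 3. Of 23 histone genes 0 were higher and 1 was lower, H2BC5 at -0.58, lost without AG014699 array 2, and histone probes can read near-identical copies. Of 36 ribosomal protein genes 1 was higher and 1 lower, and both calls ended in each leave-out of 1 of the 6 arrays. Of 7 luminal markers 1 was higher and 3 lower. Of 12 reference genes 1 was higher, the transferrin receptor gene TFRC at 0.48, a call lost in 5 of 6 leave-outs, and GAPDH and ACTB were at 0.14 and 0.04. Against 7.52% of all genes, calls made up 16.7% of the NRF2 list, 26.7% of the TGF-beta list and 57.1% of the luminal list. For the aryl hydrocarbon receptor, reference, ribosomal protein and histone lists the shares were 10%, 8.33%, 5.56% and 4.35%.

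Probes without a single gene name were tested in a fit of all 23680 kept probes. Of the 7103, 141 differed between the drugs, 65 higher and 76 lower with AG014699, a smaller share than the 7.52% of genes.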
